A study of Homo sapiens with 60 samples.

Results

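Genes that build the mitotic spindle, attach chromosomes to it and divide the cell were followed across 3 human breast cell lines, each given doxorubicin, rapamycin, both drugs or vehicle. The 58 genes, of 19775 measured, were listed by name. Earlier results of these data were known when the list was made, so the set was not chosen blind to them. Each gene was read from its probe set of highest mean over all 60 arrays of the Affymetrix U133 Plus version 2 design. SKBR3 is a line from a mammary adenocarcinoma that overexpresses the receptor HER-2, C5.2 is HB4a transfected with a full-length cDNA of HER-2, and HB4a came from normal breast epithelium. Within each line the 4 groups were both drugs, doxorubicin at 30 nM, rapamycin at 20 nM, and the DMSO vehicle, with 5 arrays per group from independent experiments numbered 1, 2, 3, 4 and 6. No treatment time is given in the labels used here. Doxorubicin is an anthracycline that poisons topoisomerase II, and rapamycin inhibits the growth-controlling kinase complex mTORC1. The study set the drug pair against the single drugs and vehicle in lines with high HER-2. The labels of the lines could be checked through ERBB2, the gene of HER-2, which in vehicle was 5.38 ± 0.14 log2 units higher in C5.2 and 4.81 ± 0.17 log2 units higher in SKBR3 than in HB4a.

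At mitosis the kinetochore, a protein plate on each centromere, is caught by spindle microtubules, and the spindle checkpoint holds back the anaphase-promoting complex until every chromosome is attached. Mitotic kinases and kinesin motors build the spindle, condensin compacts the chromosomes, and a central spindle and contractile ring then split the cell. Most of these genes are transcribed late in the cell cycle, when the MuvB complex with B-MYB and FOXM1 acts on promoters carrying a cell cycle homology region (CHR), and in arrested cells the DREAM complex silences them through the same element. NF-Y binds the CCAAT box found in many of the same promoters.

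Promoter windows, 250 bases before to 50 bases after the RefSeq transcript start on GRCh38.p14, were at hand for 50 of the 58 genes. There was none for TTK, AURKA, PBK, TPX2, BIRC5, RACGAP1, UBE2C and FOXM1. The letters TTTGAA, the usual CHR form, were searched on both strands and stood in the window of 37 of the 50 genes (74.0%), against 18.2% of the 27305 genes with a window. The rarer form TTCGAA stood in 5 of the 50 (10.0%), against 1.82% of all genes. The letters CCAAT, also on both strands, stood in 38 of the 50 (76.0%), against 39.7% of all genes, and 32 of the 50 had CCAAT together with either CHR form. TTTGAA was found for 27 of 62 genes with a window in a second list of kinetochore, checkpoint and cytokinesis genes (43.5%) and for 2 of 29 of the G1/S and origin licensing genes (6.9%). A match describes the letters of a window and is neither a proven site nor a cause of any change. Below, 4 windows are printed to show the layouts met among the genes that moved together, each written 5′ to 3′ along the gene, with capitals marking TTTGAA and its reverse complement TTCAAA, and also CCAAT with its reverse complement ATTGG.
BUB1B: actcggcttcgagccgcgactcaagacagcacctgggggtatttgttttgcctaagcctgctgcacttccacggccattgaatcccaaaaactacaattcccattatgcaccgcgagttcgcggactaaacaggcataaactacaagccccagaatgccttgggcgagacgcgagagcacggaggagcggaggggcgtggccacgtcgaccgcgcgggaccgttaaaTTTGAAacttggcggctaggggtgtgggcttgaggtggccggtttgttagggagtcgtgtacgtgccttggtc
PRC1: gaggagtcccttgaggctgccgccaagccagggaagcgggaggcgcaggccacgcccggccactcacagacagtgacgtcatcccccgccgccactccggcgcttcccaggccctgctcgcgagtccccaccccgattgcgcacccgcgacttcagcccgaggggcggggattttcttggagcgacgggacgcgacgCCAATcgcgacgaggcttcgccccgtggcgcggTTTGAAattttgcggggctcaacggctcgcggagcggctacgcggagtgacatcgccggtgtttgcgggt
CDC20: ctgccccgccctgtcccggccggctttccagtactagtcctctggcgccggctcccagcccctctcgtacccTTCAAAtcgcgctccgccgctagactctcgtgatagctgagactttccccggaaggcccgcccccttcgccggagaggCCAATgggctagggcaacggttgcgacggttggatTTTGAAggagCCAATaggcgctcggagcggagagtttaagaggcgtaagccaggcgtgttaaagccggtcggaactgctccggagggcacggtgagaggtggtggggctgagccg
KIF20A: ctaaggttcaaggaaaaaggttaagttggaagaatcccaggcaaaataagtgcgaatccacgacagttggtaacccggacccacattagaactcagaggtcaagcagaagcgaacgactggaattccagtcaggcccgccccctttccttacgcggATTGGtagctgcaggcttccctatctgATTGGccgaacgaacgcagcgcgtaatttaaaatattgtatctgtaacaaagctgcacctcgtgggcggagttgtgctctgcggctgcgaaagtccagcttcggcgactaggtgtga
The window of BUB1B (chr15:40160819-40161118, + strand), a checkpoint kinase-like protein, holds TTTGAA beginning 23 bases before the start and no CCAAT. That of PRC1 (chr15:90994486-90994785, - strand), which bundles microtubules of the central spindle, holds TTTGAA 20 bases and CCAAT 53 bases before the start. CDC20 (chr1:43358731-43359030, + strand), the activator of the anaphase-promoting complex, has TTTGAA at 65 bases, CCAAT at 55 and 100 bases, and TTCAAA at 178 bases before the start. KIF20A (chr5:138178862-138179161, + strand), a kinesin of the central spindle, has ATTGG at 67 and 94 bases before the start and neither CHR form.

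Values are log2 probe set summaries, so a difference of 1 is a factor of 2, and levels are compared only within a gene. A gene was tested where its value exceeded 5 on at least 5 arrays of the fit, which 46 of the 58 genes did in SKBR3, 47 in C5.2 and 41 in HB4a. No member entered a fit within a line through 1 group alone. In SKBR3 some, such as DLGAP5 and CEP55, entered with no rapamycin array above 5, through groups where they were higher. The fit without the filter, also given, does not rest on this entry. Changes are differences of group means ± SE (limma, n = 5 arrays in each group). A gene is said to rise or fall where its 2-sided adjusted p, over all genes tested, was under 0.05. Array medians, taken as background, lay between 1.41 and 1.71. The residual SD over genes was the highest of its group for array 1 in 4 of 4 groups of HB4a and 2 of 4 of SKBR3, and for array 2 in 3 of 4 groups of C5.2. All arrays of these numbers in those lines, with HB4a rapamycin array 4, whose GAPDH 3′ minus 5′ difference was 1.67 log2 units, are called the arrays that stood apart and were left out together as an alternative. SKBR3 both-drug array 4, with the highest residual SD of its group (0.347), was not among them. SKBR3 vehicle array 3 had a mean of 4.43 for 6 genes that read low in SKBR3 and high in both other lines, against 1.36 to 1.70 on the other vehicle arrays of SKBR3. Of 4 leukocyte and 3 endothelial markers, 0 averaged above 5 in any line. In SKBR3 the basal keratins KRT5 and KRT14 and the cadherin CDH3 were under 5 on average, while 4 of 5 luminal markers were above 5 in each line. In whole cultures, fewer cells in division and less of each transcript per cell cannot be told apart.

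In SKBR3 rapamycin lowered nearly the whole set. Of the 46 genes tested 45 fell and 0 rose, where 10.8% of all genes tested fell and 7.48% rose. The exception was the entry phosphatase CDC25B. The median change of the tested members was -1.31 log2 units, beside -0.03 for all genes tested, of which the 5th to 95th percentiles ran from -0.60 to 0.48. In the fit without the filter, all 58 differences were negative and 56 of 58 fell (background 3.38%), the exceptions being CDC25B and the centriole kinase PLK4. On all 5 rapamycin arrays 48 of the 58 lay below every vehicle array, as did 3.47% of all genes. Leaving out SKBR3 vehicle array 3 gave 42 falls of 43 members tested, and leaving out the arrays that stood apart gave 39 of 40. The map of changes by member shows the 3 lines side by side.

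**Figure D1:**
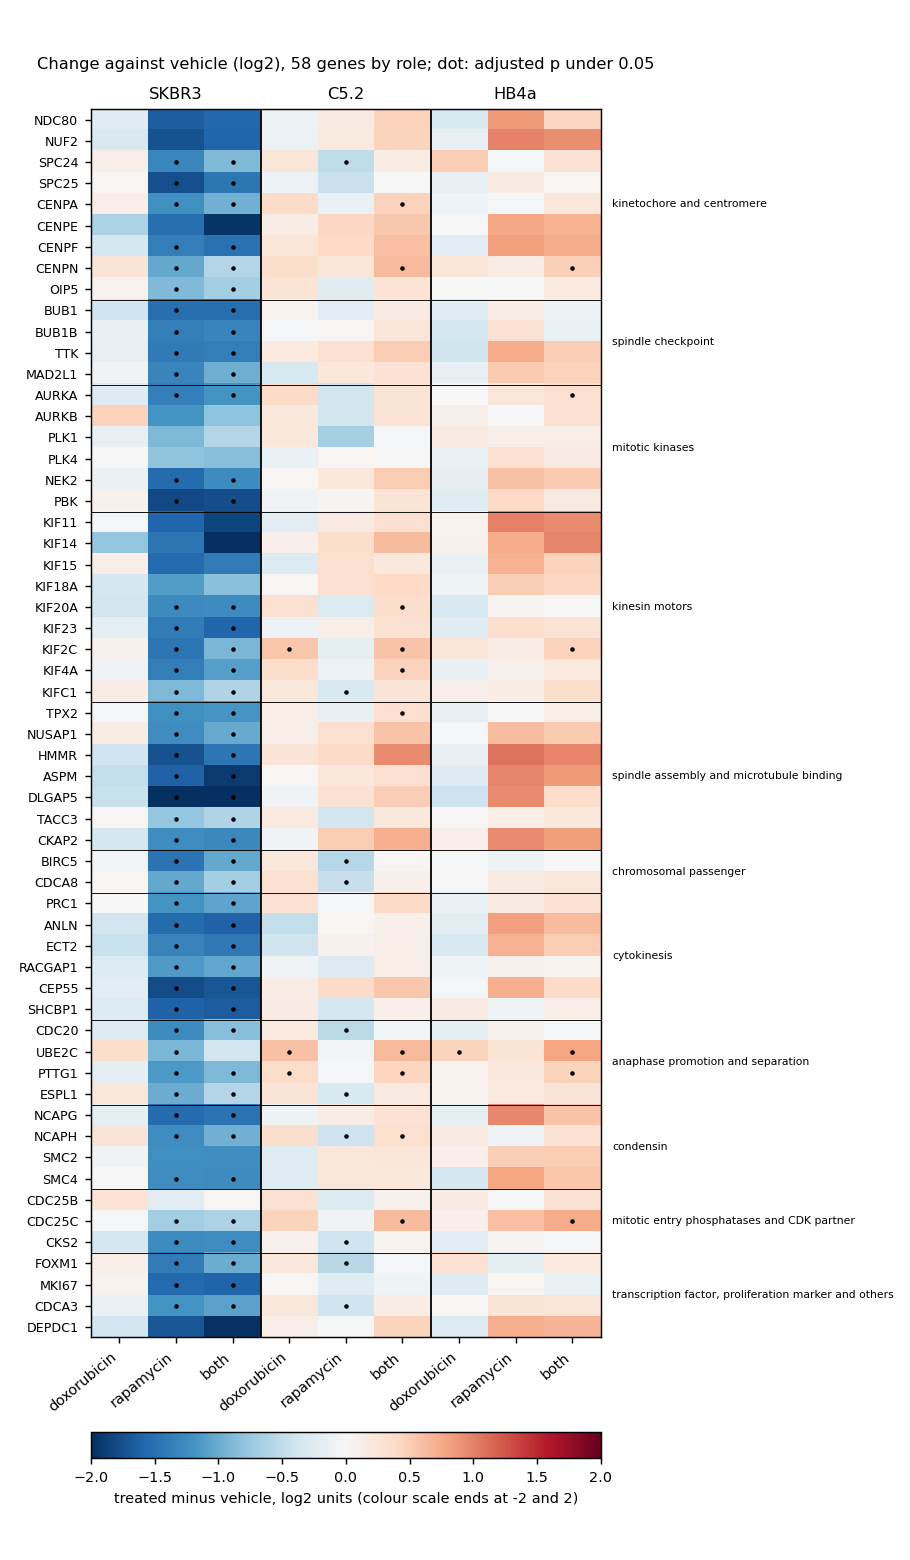
Each row is 1 of the 58 genes, ordered by role, and each column 1 treatment against vehicle in 1 line; colour gives the change in log2 units from the fit without the filter on low values, and a dot marks adjusted p under 0.05 in the filtered fit. The SKBR3 columns for rapamycin and for both drugs carry 45 and 44 dots on falls, and the SKBR3 doxorubicin column carries 0 dots.

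All 6 kinetochore and centromere genes tested fell with rapamycin in SKBR3. SPC25, a subunit of the NDC80 complex that grips the microtubule, read 3.92, 3.29, 3.79, 3.95 and 3.47 on the rapamycin arrays, against 5.87, 5.11, 5.57, 5.53 and 5.11 on the vehicle arrays, in order of experiment. The groups did not overlap, and the change was -1.75 ± 0.18 log2 units, 3.37-fold lower (adjusted p = 4.62e-07). CENPA, the histone variant that marks the centromere, read 4.28, 4.15, 4.79, 4.78 and 4.42 with rapamycin and 6.07, 5.46, 5.70, 5.75 and 5.56 with vehicle. Here too every rapamycin array was below every vehicle array, with a change of -1.23 ± 0.15 (adjusted p = 5.45e-06). The probe sets of CENPA, FOXM1 and PTTG1 are of a kind that can also bind related transcripts. NDC80 itself did not pass the filter: its arrays read 3.32, 2.35, 3.18, 3.38 and 2.51 with rapamycin and 5.33, 3.87, 4.90, 4.61 and 4.25 with vehicle, again without overlap. The smallest fall in the group was that of OIP5, which helps load CENPA, at -0.89 ± 0.10 (adjusted p = 1.58e-06).

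The 4 checkpoint genes all fell, and by similar amounts, from -1.51 ± 0.22 for the kinase BUB1 to -1.32 ± 0.23 for MAD2L1. BUB1B, the checkpoint pseudokinase whose promoter is shown above, read 5.47, 4.73, 5.40, 5.59 and 4.72 with rapamycin and 7.04, 6.16, 6.66, 6.68 and 6.29 with vehicle. Its groups were apart, by -1.38 ± 0.21 log2 units (adjusted p = 6.89e-05). MAD2L1, which with BUB1B makes up the inhibitor of CDC20, read 6.15, 5.80, 6.0, 6.44 and 5.48 with rapamycin, against 7.92, 6.90, 7.29, 7.45 and 6.91 with vehicle. Array 6 was the lowest with rapamycin, and no rapamycin array reached a vehicle array (-1.32 ± 0.23, adjusted p = 0.000315).

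Of the 6 mitotic kinases 3 passed the filter and all 3 fell: AURKA, NEK2 and PBK. Aurora A, encoded by AURKA, matures the spindle poles, and its arrays read 8.30, 7.99, 8.24, 8.29 and 7.99 with rapamycin and 9.58, 9.47, 9.69, 9.61 and 9.30 with vehicle. The gap was wide against the spread within groups, a change of -1.37 ± 0.12 or 2.58-fold (adjusted p = 7.54e-08). PBK, a mitotic kinase also called TOPK, read 4.10, 3.89, 4.39, 4.99 and 3.67 with rapamycin, against 6.53, 5.14, 6.13, 6.51 and 5.75 with vehicle. The 2 groups nearly touched, at rapamycin array 4 and vehicle array 2, and the change was -1.81 ± 0.30 (adjusted p = 0.000213). AURKB, the kinase of the chromosomal passenger complex, was too low in SKBR3 to be tested and read 3.37, 2.41, 3.57, 3.53 and 3.42 with rapamycin and 4.52, 4.09, 4.63, 4.50 and 4.57 with vehicle, without overlap.

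Each of the 5 kinesins tested fell. KIF20A, which carries the passenger complex to the central spindle, read 5.64, 5.52, 6.01, 5.99 and 5.66 with rapamycin and 6.91, 6.88, 7.31, 7.08 and 6.97 with vehicle. The difference of -1.27 ± 0.11 log2 units (adjusted p = 7.54e-08) left the groups well separated. KIF2C, which takes microtubules apart at centromeres, read 6.48, 5.82, 6.50, 6.29 and 6.32 with rapamycin, against 7.99, 7.51, 7.83, 7.65 and 7.66 with vehicle. It fell by 1.45 ± 0.13 (adjusted p = 9.31e-08), with rapamycin array 2 the lowest. The minus-end motor KIFC1 had the smallest change of the 5, -0.90 ± 0.11 (adjusted p = 4.69e-06). KIF11, the motor that pushes spindle poles apart, did not pass the filter and differed by -1.58 ± 0.31 without it.

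All 7 genes of spindle assembly fell, and this group held the largest and one of the smallest changes. DLGAP5, a protein of the spindle fibres at chromosomes, read 3.71, 3.0, 3.48, 4.27 and 2.60 with rapamycin and 6.07, 4.59, 5.54, 5.53 and 5.35 with vehicle. Its groups did not meet, and the change of -2.0 ± 0.31 was the largest of the 46, 4.0-fold (adjusted p = 9.25e-05). TPX2, the activator of Aurora A, read 4.64, 4.46, 5.53, 5.47 and 5.06 with rapamycin and 6.13, 6.02, 6.42, 6.44 and 6.26 with vehicle. Rapamycin arrays 1 and 2 were the lowest and no array crossed over, for a change of -1.23 ± 0.17 (adjusted p = 3.57e-05). HMMR, a microtubule-binding protein of the spindle poles, fell by 1.74 ± 0.31 (adjusted p = 0.000394). TACC3, which crosslinks spindle fibres, changed by -0.77 ± 0.15 (adjusted p = 0.00105).

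Both passenger genes and all 6 cytokinesis genes fell. Survivin, the product of BIRC5, was read at 6.81, 6.30, 6.85, 6.87 and 6.71 with rapamycin and 8.27, 8.12, 8.25, 8.13 and 8.12 with vehicle. The vehicle arrays lay close together, rapamycin array 2 was the lowest, and the change was -1.47 ± 0.11 (adjusted p = 3.02e-08). CEP55, which draws the abscission machinery to the bridge between daughter cells, read 2.90, 2.79, 3.06, 3.49 and 2.32 with rapamycin, against 5.18, 3.95, 5.0, 5.11 and 4.23 with vehicle. The groups stayed apart while vehicle arrays 2 and 6 were low, and the change was -1.78 ± 0.32 (adjusted p = 0.000502). PRC1 read 6.26, 5.91, 6.44, 6.53 and 6.18 with rapamycin and 7.64, 7.08, 7.78, 7.51 and 7.30 with vehicle, a change of -1.20 ± 0.14 without overlap (adjusted p = 2.97e-06).

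All 4 genes of anaphase promotion and chromatid separation fell, with a median change of -1.07. CDC20 read 7.54, 7.32, 7.82, 7.74 and 7.76 with rapamycin and 8.78, 8.87, 8.96, 8.86 and 9.0 with vehicle. The highest rapamycin array was well below the lowest vehicle array, and the change was -1.26 ± 0.10 (adjusted p = 6.07e-08). UBE2C, the ubiquitin-conjugating enzyme of the anaphase-promoting complex, read 8.15, 8.19, 8.79, 8.79 and 8.90 with rapamycin, against 9.15, 9.34, 9.70, 9.58 and 9.68 with vehicle. Experiments 1 and 2 were low in both groups, the groups did not overlap, and the change was -0.92 ± 0.16 (adjusted p = 0.000312). PTTG1, securin, which restrains separase, fell by 1.15 ± 0.10 (adjusted p = 9.31e-08).

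Condensin genes NCAPG, NCAPH and SMC4 fell, and SMC2 was not tested. SMC4, a core ATPase of condensin, read 6.20, 5.67, 6.49, 6.90 and 5.55 with rapamycin and 7.68, 6.79, 7.61, 7.65 and 7.26 with vehicle. Rapamycin array 4 lay above vehicle array 2, so the groups overlapped, and the change was -1.24 ± 0.29 (adjusted p = 0.00526). FOXM1, the transcription factor that drives late cell cycle genes, read 4.26, 4.21, 4.69, 4.58 and 4.43 with rapamycin, against 5.47, 5.94, 6.04, 5.85 and 5.84 with vehicle. No arrays crossed, and the change was -1.39 ± 0.15 (adjusted p = 1.7e-06). MKI67, the gene of the proliferation antigen Ki-67, read 4.12, 3.68, 4.49, 4.74 and 4.43 with rapamycin and 5.25, 5.40, 6.32, 6.15 and 6.09 with vehicle. Its groups did not overlap either (-1.55 ± 0.33, adjusted p = 0.00191).

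CDC25B differed from the rest. This phosphatase, which activates CDK1 with cyclin B, read 7.73, 8.14, 8.64, 8.10 and 8.26 with rapamycin and 7.74, 8.51, 8.53, 8.58 and 8.59 with vehicle. Array 1 was low in both groups, the groups overlapped, and the change of -0.22 ± 0.18 did not pass the test (adjusted p = 0.446). With the experiment number as a block, which the SKBR3 arrays bore out as a pairing, the same difference passed (adjusted p = 0.044), so that all 46 tested members fell, where 23.8% of all genes did. CDC25C, the second phosphatase of this kind in the set, fell by 0.70 ± 0.15 (adjusted p = 0.00222), and CKS2, a small partner of CDK1, by 1.26 ± 0.11 (adjusted p = 6.07e-08). All 56 probe sets that averaged above 5 in either SKBR3 group, which belong to 45 of the 58 genes, were lower with rapamycin, and 10 genes had more than 1 of them. Of 36 further, dimmer probe sets 33 were lower and 3 higher, with differences from -1.96 to 0.08.

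**Figure D2:**
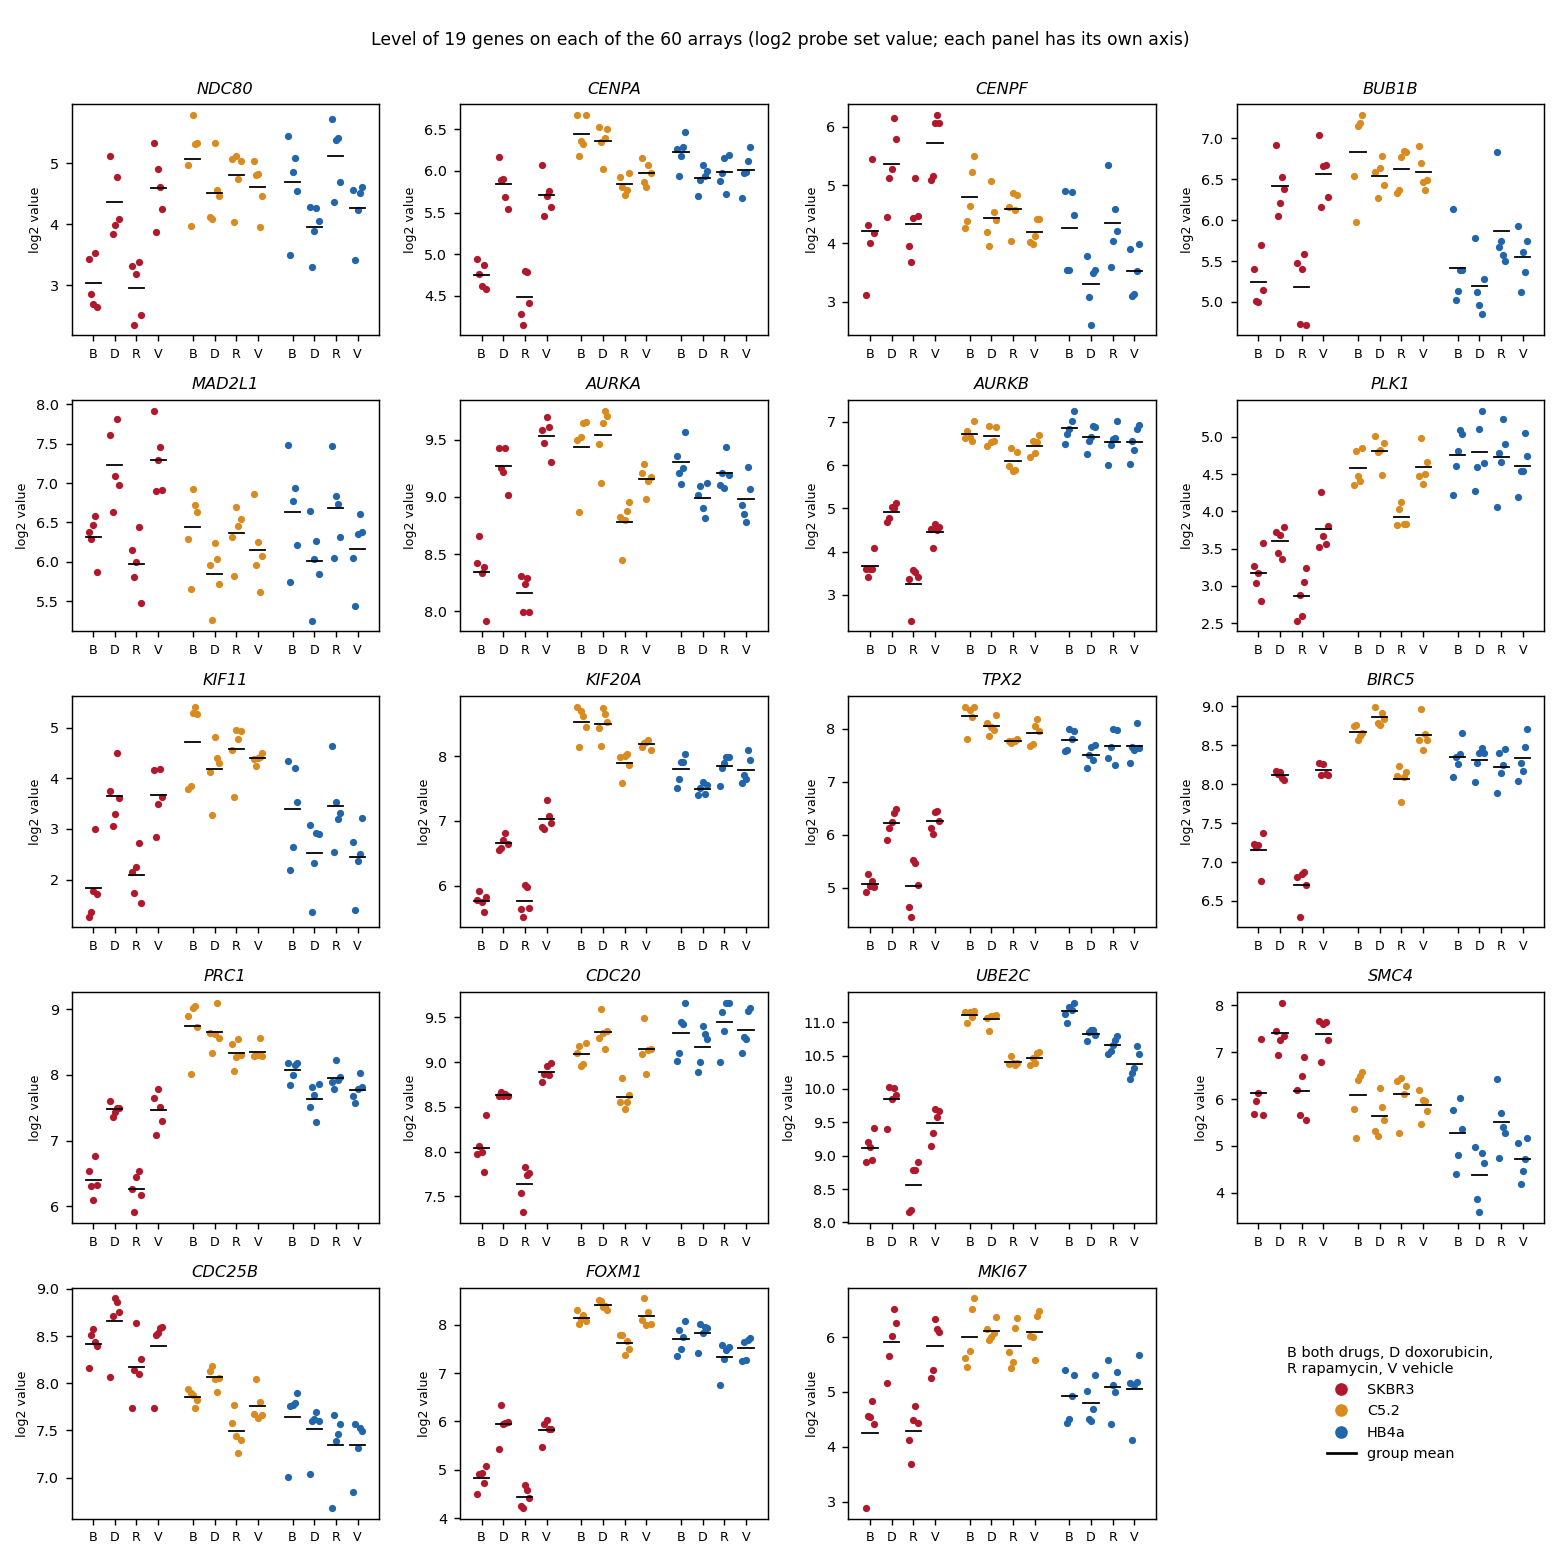
Each panel shows 1 of 19 genes, with the log2 value of every array (points) and the group mean (line) for both drugs, doxorubicin, rapamycin and vehicle in the 3 lines; each panel has its own axis. In SKBR3 the rapamycin points of CDC20 lie between 7.32 and 7.82, below the vehicle points at 8.78 to 9.0, while those of CDC25B overlap.

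Doxorubicin alone changed 0 of the 46 members in SKBR3, where 0.837% of all genes tested changed. At an unadjusted p under 0.05 limma gave 2 higher and 5 lower. The median member change was -0.07 log2 units, and the 58 differences ran from -0.77 to 0.46. With the experiment number as a block, UBE2C rose, and KIF20A, CKS2 and RACGAP1, a subunit of the centralspindlin complex, fell (1 higher, background 3.35%, and 3 lower, background 1.66%). UBE2C read 9.40, 10.02, 9.85, 10.02 and 9.92 on the doxorubicin arrays, and each array was higher than the vehicle array of its experiment (0.36 ± 0.16, adjusted p = 0.634 without the block and 0.038 with it). KIF20A read 6.54, 6.58, 6.71, 6.81 and 6.65 with doxorubicin, all below its vehicle arrays, for a change of -0.37 ± 0.11 (adjusted p = 0.158 without the block, 0.0189 with it).

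With both drugs SKBR3 again had low values across the set: 44 of 46 fell and 0 rose, where 13.6% of all genes fell and 8.35% rose. The same vehicle arrays served as the comparison for each treatment. The median change was -1.14 log2 units, 57 of 58 differences were negative, and 38 of 58 genes had groups that did not overlap (background 2.78%). DLGAP5 read 3.47, 3.16, 3.09, 4.06 and 3.06 with both drugs, -2.05 ± 0.31 against vehicle (adjusted p = 8.54e-05). ASPM, which focuses the spindle poles, read 3.01, 3.45, 3.42, 5.30 and 3.50 with both drugs and 5.33, 4.89, 6.01, 6.28 and 5.72 with vehicle. Array 4 was high in both groups and overlapped the vehicle range, and the change was -1.91 ± 0.40 (adjusted p = 0.00213). PBK read 4.10, 3.98, 4.14, 5.17 and 3.85 with both drugs and fell by 1.77 ± 0.30 (adjusted p = 0.00028). The 2 genes without a call were CDC25B at 0.02 ± 0.18 (adjusted p = 0.934) and UBE2C at -0.37 ± 0.16 (adjusted p = 0.0936), the second of which passed with the block (adjusted p = 0.00399). UBE2C read 8.90, 9.20, 9.13, 8.93 and 9.41 with both drugs, overlapping its vehicle arrays.

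Both drugs against doxorubicin alone gave 45 falls of 46 (background 14.6%), all but CDC25B, with a median of -1.04. MKI67 read 2.88, 4.55, 4.55, 4.84 and 4.42 with both drugs and 5.16, 5.65, 6.01, 6.51 and 6.25 with doxorubicin. The array of experiment 1 was far below the other arrays given both drugs, no arrays crossed over, and the change was -1.67 ± 0.33 (adjusted p = 0.00109). With the block CDC25B was lower too (-0.24 ± 0.18, adjusted p = 0.344 without the block and 0.0229 with it).

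Both drugs against rapamycin alone called 0 of 46 members in SKBR3 (background 0.552% higher and 0% lower). At an unadjusted p under 0.05 limma gave 13 higher and 0 lower, the median was 0.16, and 42 of 58 differences were positive. Leaving out both-drug array 4 gave 3 calls and leaving out rapamycin array 3 gave 1. With the block 10 were higher with both drugs (background 3.30%): SPC24, CENPN, KIF2C, KIFC1, BIRC5, CDCA8, CDC20, UBE2C, ESPL1 and FOXM1. KIF2C read 6.97, 6.79, 6.77, 6.60 and 6.95 with both drugs, above every rapamycin array given earlier (0.53 ± 0.13, adjusted p = 0.0646 without the block and 0.000377 with it). BIRC5 read 7.24, 7.19, 7.21, 6.75 and 7.37 with both drugs, where array 4 overlapped the rapamycin arrays (0.45 ± 0.11, adjusted p = 0.0807 without the block and 0.0092 with it).

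**Figure D3:**
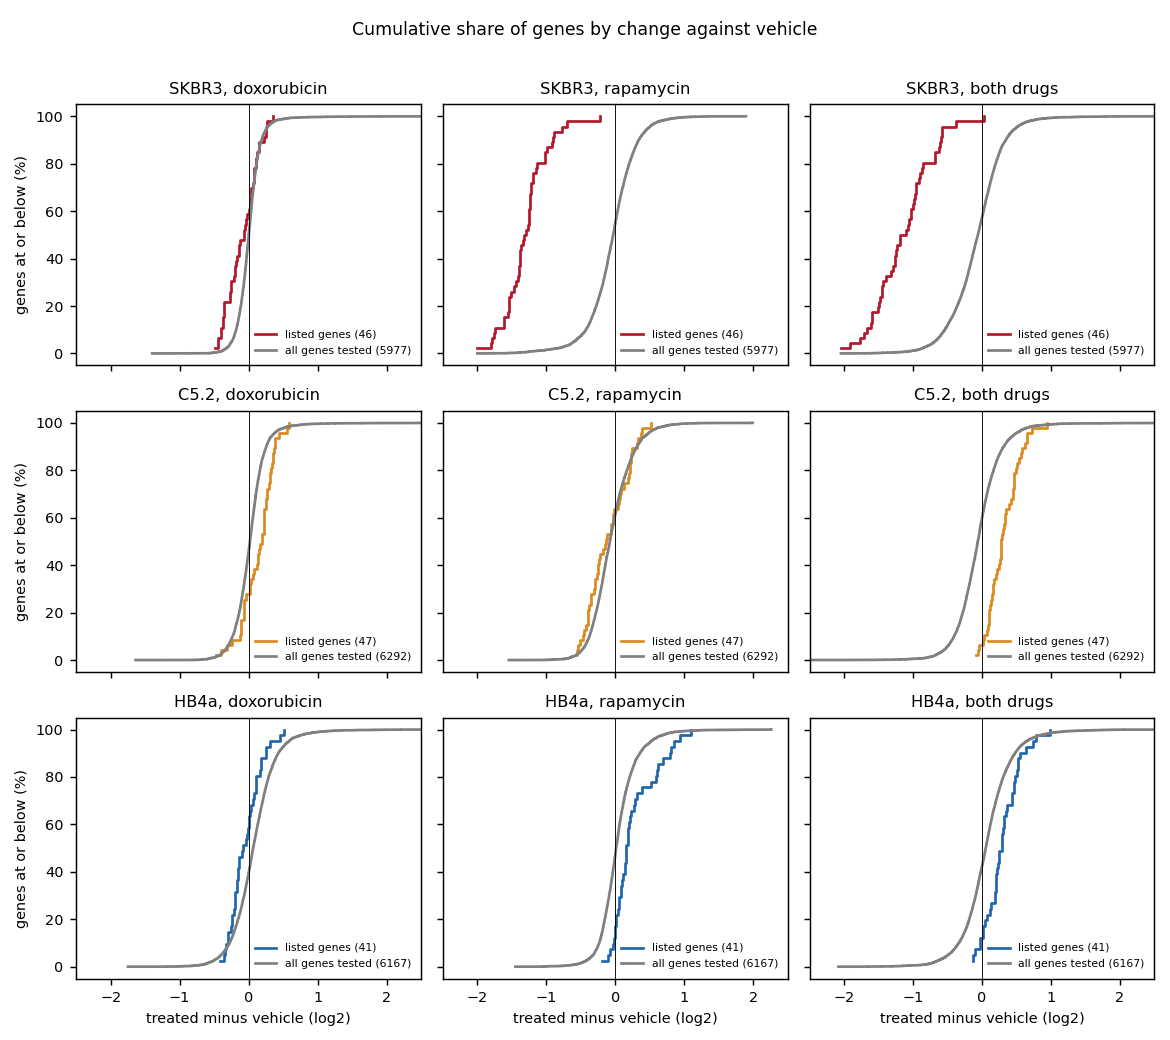
Each panel gives, for 1 line and treatment, the cumulative percentage of genes (y axis) with a change against vehicle at or below the value on the x axis (log2 units), for the listed genes tested (coloured) and all genes tested (grey). In SKBR3 the listed genes lie left of all genes with rapamycin (median -1.31 against -0.03) and with both drugs (median -1.14 against -0.06).

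In C5.2 the direction of the calls differed by treatment. Doxorubicin raised 3 of 47 tested members and lowered 0 (background 2.84% and 0.413%): UBE2C, KIF2C and PTTG1. UBE2C read 11.07, 10.87, 11.10, 11.09 and 11.11 with doxorubicin and 10.36, 10.46, 10.39, 10.54 and 10.56 with vehicle. The groups did not overlap although doxorubicin array 2 was low, and the change was 0.59 ± 0.05, 1.5-fold (adjusted p = 1.63e-06). KIF2C read 8.83, 8.52, 8.64, 8.77 and 8.74 with doxorubicin, against 8.26, 8.33, 7.90, 8.11 and 8.11 with vehicle, again apart (0.56 ± 0.09, adjusted p = 0.000964). PTTG1 rose by 0.36 ± 0.06 (adjusted p = 0.00229). Leaving out vehicle array 2 gave 6 calls. With the experiment number as a block, 19 members rose (background 11.0%), among them CENPA at 0.39 ± 0.11 and AURKA at 0.38 ± 0.14. Over the genes tested, same-number arrays of these groups deviated from their group means with r = 0.132 to 0.686. The block fits of C5.2 also hold its both-drug arrays, whose numbers did not pair with vehicle in every experiment.

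Rapamycin lowered 10 of 47 members in C5.2 and raised 0, where 14.6% of all genes fell and 2.83% rose. The share of members that fell was not far above that of all genes. The median change of the tested members was -0.14 beside -0.08 for all genes. Over all 58 genes the median was -0.03, with 27 differences above 0 and 31 below. The sign went with the level. Of the 16 members with a mean under 5, 14 were above 0 and 2 below (median 0.22). Of the 42 with a mean of 5 or more, 13 were above and 29 below (median -0.20). The 10 that fell were BIRC5, FOXM1, CDC20, SPC24, CDCA8, NCAPH, CKS2, CDCA3, ESPL1 and KIFC1. BIRC5 read 8.11, 8.24, 7.77, 8.10 and 8.15 with rapamycin and 8.57, 8.96, 8.45, 8.65 and 8.57 with vehicle. Every rapamycin array was lower, with a change of -0.57 ± 0.09 (adjusted p = 0.000659). FOXM1 read 7.79, 7.79, 7.37, 7.67 and 7.50 with rapamycin, against 8.09, 8.54, 8.0, 8.26 and 8.02 with vehicle. Vehicle array 2 was the highest and the groups were apart (-0.56 ± 0.10, adjusted p = 0.00137). CDC20 read 8.55, 8.83, 8.47, 8.56 and 8.63 with rapamycin and 9.09, 9.50, 8.86, 9.13 and 9.15 with vehicle, the groups meeting at no point (-0.54 ± 0.10, adjusted p = 0.00174). SPC24, a subunit of the NDC80 complex, changed by -0.51 ± 0.10 (adjusted p = 0.0022), and CDCA8, borealin of the passenger complex, by -0.46 ± 0.10 (adjusted p = 0.005). With the block 18 fell (background 31.7%) and 2 rose (background 12.5%), the rises being CENPN and CEP55. The lowest r of same-number arrays was 0.105 here.

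Both drugs raised 10 of 47 members in C5.2 and lowered 0, where 6.42% of all genes rose and 14.6% fell. The median was 0.28 log2 units, beside -0.06 for all genes. CENPN, which reads the CENPA nucleosome, read 7.60, 7.05, 7.90, 7.79 and 7.59 with both drugs and 6.99, 6.90, 7.05, 6.83 and 6.92 with vehicle. Array 2 given both drugs equalled the top vehicle array to the precision shown and the other arrays were above it (0.65 ± 0.13, adjusted p = 0.00139). CDC25C read 6.51, 6.10, 6.23, 6.27 and 6.38 with both drugs, against 5.80, 6.07, 5.39, 5.60 and 5.48 with vehicle. Array 2 was lowest in the first group and highest in the second, without overlap (0.63 ± 0.12, adjusted p = 0.00114). UBE2C read 11.15, 10.99, 11.16, 11.07 and 11.17 with both drugs, above every vehicle array (0.65 ± 0.05, adjusted p = 1.39e-07). The other 7 were KIF2C (0.57 ± 0.09), CENPA (0.47 ± 0.11), KIF4A, PTTG1, KIF20A, TPX2 and NCAPH. The count hung on single arrays: it was 20 without both-drug array 2, and 6 without vehicle array 6, both-drug array 4 or both-drug array 6. Without the arrays that stood apart it was 26.

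Against rapamycin alone, both drugs raised 23 of 47 in C5.2 and lowered 0 (background 4.82% and 1.57%), with a median of 0.47 beside 0.00 for all genes. On 19 of the 58 the both-drug arrays were all above the rapamycin arrays (background 3.01%). The genes that rose included all 4 of anaphase promotion, both passenger genes and all 3 of mitotic entry, and the 6 cytokinesis genes, with changes from 0.04 to 0.46, were not called. KIF2C read 8.83, 8.48, 8.68, 8.78 and 8.80 with both drugs and 8.04, 7.99, 7.79, 7.97 and 8.06 with rapamycin. Its groups were well apart (0.75 ± 0.09, adjusted p = 2.3e-05). AURKA read 9.50, 8.87, 9.52, 9.64 and 9.66 with both drugs, where array 2 was low, and 8.83, 8.44, 8.80, 8.88 and 8.96 with rapamycin. That array overlapped the rapamycin arrays and the other 4 did not (0.66 ± 0.14, adjusted p = 0.00536).

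Against doxorubicin alone, both drugs raised 1 of 47, CKAP2, a protein that stabilises spindle microtubules (0.79 ± 0.26, adjusted p = 0.049; background 1.73% higher and 11.8% lower). This call was lost on leaving out any 1 of doxorubicin arrays 1, 2, 4 and 6 or both-drug arrays 1, 3, 4 and 6, and without both-drug array 2 there were 11 calls. With the block, 12 members were higher (background 8.53%) and 5 lower (background 29.5%). CDC20 was among the lower ones, reading 9.10, 9.18, 8.96, 8.98 and 9.22 with both drugs and 9.27, 9.59, 9.33, 9.15 and 9.35 with doxorubicin (-0.25 ± 0.10, adjusted p = 0.108 without the block and 0.00293 with it).

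**Figure D4:**
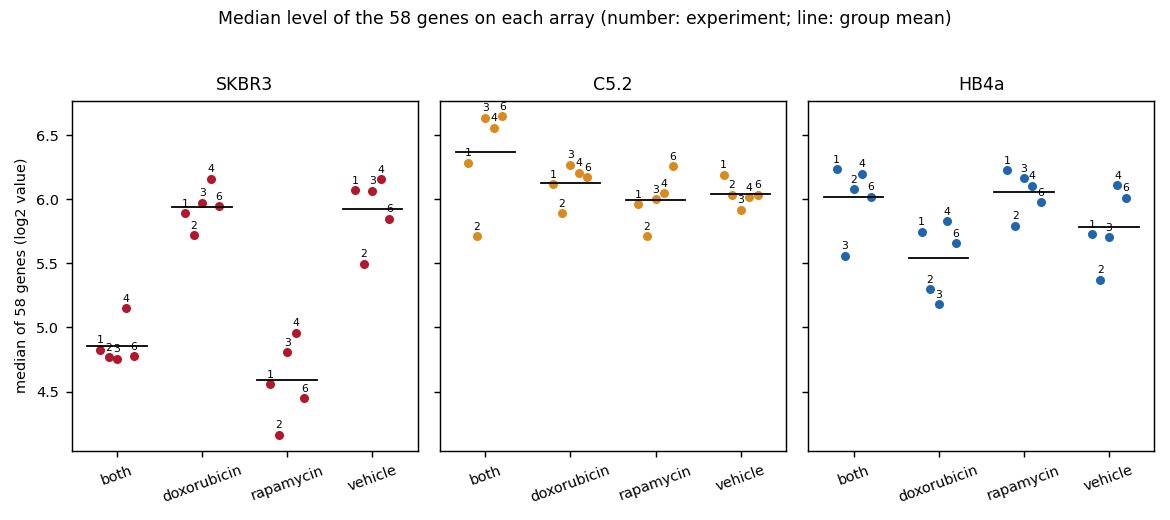
The median log2 value of the 58 genes is shown for each array (numbered by experiment) and each group (line: mean) in the 3 lines. SKBR3 arrays with rapamycin lie between 4.16 and 4.96 and with both drugs between 4.76 and 5.15, below the vehicle arrays from 5.50 to 6.15.

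In HB4a few members passed the test. Doxorubicin raised 1 of 41 and lowered 0 (background 8.66% and 2.77%). That gene was UBE2C, which read 10.72, 10.85, 10.88, 10.88 and 10.81 with doxorubicin and 10.14, 10.25, 10.32, 10.64 and 10.53 with vehicle. The groups did not overlap (0.45 ± 0.08, adjusted p = 0.000954). With the block 4 rose (background 24.4%) and 3 fell (background 8.22%), BUB1B, KIF20A and CKS2 being lower. The block fits of HB4a also hold its both-drug arrays, whose numbers are partly in doubt, as given below.

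Rapamycin changed 0 of 41 members in HB4a (background 2.08% higher and 1.10% lower), with 11 higher and 0 lower at an unadjusted p under 0.05 by limma. The differences leaned upward: 52 of 58 were positive, with a median of 0.16 over the members tested and 0.28 over all 58. The lean was larger at low levels. The median was 0.74 for the 23 members with a mean under 5 and 0.15 for the 35 with a mean of 5 or more. HMMR read 6.20, 4.80, 6.19, 5.76 and 5.09 with rapamycin and 4.42, 3.90, 4.97, 4.77 and 4.54 with vehicle. Only rapamycin array 2 fell within the vehicle range, and the difference of 1.09 ± 0.35 did not pass (adjusted p = 0.0996). CDC25C differed by 0.60 ± 0.17 (adjusted p = 0.0625). With the block 11 rose (background 9.63%), with CDC25C at adjusted p = 0.000162, HMMR at 0.0226 and DLGAP5 at 0.0142. Leaving out 1 array gave at most 2 calls, without rapamycin array 1, and 1 call without vehicle array 4, rapamycin array 2 or rapamycin array 3. HB4a rapamycin array 4, with the high GAPDH 3′ minus 5′ difference, had a member median within the range of its group, and leaving it out gave 0 calls.

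Both drugs raised 6 of 41 in HB4a and lowered 0 (background 10.9% and 6.49%), a share of members near that of all genes, with a median of 0.29 beside 0.05 for all genes. Over the genes tested, both-drug array 3 of HB4a deviated from its group as the arrays numbered 2 of the other groups did (r = 0.68 to 0.88), and array 2 as those numbered 3 (r = 0.55 to 0.63). Numbers 2 and 3 of that group may be exchanged in the labels, and values are given by the numbers as labelled. UBE2C read 11.12, 11.22, 10.98, 11.19 and 11.29 with both drugs, above every vehicle array given above (0.79 ± 0.08, 1.72-fold, adjusted p = 8.46e-07). CDC25C read 6.19, 6.53, 6.59, 6.63 and 6.79 with both drugs, against 5.42, 5.60, 5.87, 6.10 and 6.07 with vehicle. Here the groups were apart too (0.74 ± 0.17, adjusted p = 0.00517). PTTG1 read 10.83, 10.78, 10.68, 10.89 and 10.81 with both drugs and 10.40, 10.16, 10.35, 10.45 and 10.43 with vehicle, without overlap (0.44 ± 0.06, adjusted p = 3.57e-05). The other 3 were CENPN (0.47 ± 0.15), KIF2C (0.47 ± 0.13) and AURKA (0.32 ± 0.10). Of the 6 that rose in HB4a and the 10 that rose in C5.2 with both drugs, 5 were shared (83.3% and 50% of each): CENPN, KIF2C, UBE2C, PTTG1 and CDC25C.

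Both drugs against doxorubicin raised 2 of 41 in HB4a (background 1.15% higher and 1.43% lower), PTTG1 (0.36 ± 0.06, adjusted p = 0.00199) and UBE2C (0.33 ± 0.08, adjusted p = 0.0268). Without both-drug array 3 there were 5 calls, and 1 without doxorubicin array 1 or 4 or without both-drug array 2, 4 or 6. Against rapamycin 2 were higher (background 5.66% higher and 3.18% lower), again UBE2C (0.51 ± 0.08, adjusted p = 0.000385) and PTTG1 (0.22 ± 0.06, adjusted p = 0.0267). That count was 1 without rapamycin array 1 or 3 or both-drug array 4 or 6.

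The difference between lines was tested directly, in fits that a gene could enter through either line. The rapamycin response was lower in SKBR3 than in HB4a for 50 of 51 members, where 3.47% of all genes had a lower and 1.57% a higher response, with a median difference of -1.53 log2 units. Of the 38 members that passed the filter within both lines 37 had a lower response. CDC25B was the exception (-0.22 ± 0.27, adjusted p = 0.735). The largest difference was that of DLGAP5, -2.94 ± 0.49 (adjusted p = 9.16e-05), whose change with rapamycin was -2.0 ± 0.31 in SKBR3 and 0.94 ± 0.36 in HB4a. For AURKA the responses differed by -1.59 ± 0.16 (adjusted p = 5.7e-09), and for UBE2C by -1.20 ± 0.18 (adjusted p = 2.11e-05). The response to both drugs was lower in SKBR3 for 49 of 51 (background 6.44% lower and 3.38% higher), with a median of -1.37, and for 37 of the 38 that passed within both lines, the exceptions being CDC25B and PLK1, the polo kinase of mitosis. For doxorubicin 0 of 51 differed (background 1.10% higher and 2.76% lower), with 0 higher and 1 lower at an unadjusted p under 0.05 by limma.

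Between C5.2 and HB4a 0 of 50 members differed in the response to any of the 3 treatments. Unadjusted, limma gave 7 higher for doxorubicin, 16 lower for rapamycin and 0 for both drugs. The background was 0% higher and 0.101% lower for doxorubicin, 0% in either direction for rapamycin, and 0.0431% higher and 0.330% lower for both drugs. With the block, where the numbers paired the arrays, the doxorubicin response of 4 members was higher in C5.2 (background 0.431%). Likewise the rapamycin response of 14 was lower in C5.2 (background 2.24%). These fits with the block also hold the both-drug arrays of each line. The numbers of those of HB4a are partly in doubt, and those of C5.2 did not pair with vehicle in every experiment. The median rapamycin difference of C5.2 minus HB4a was -0.40 over the 50 members and -0.11 over all genes. Without HB4a rapamycin array 1 there was 1 call for rapamycin.

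**Figure D5:**
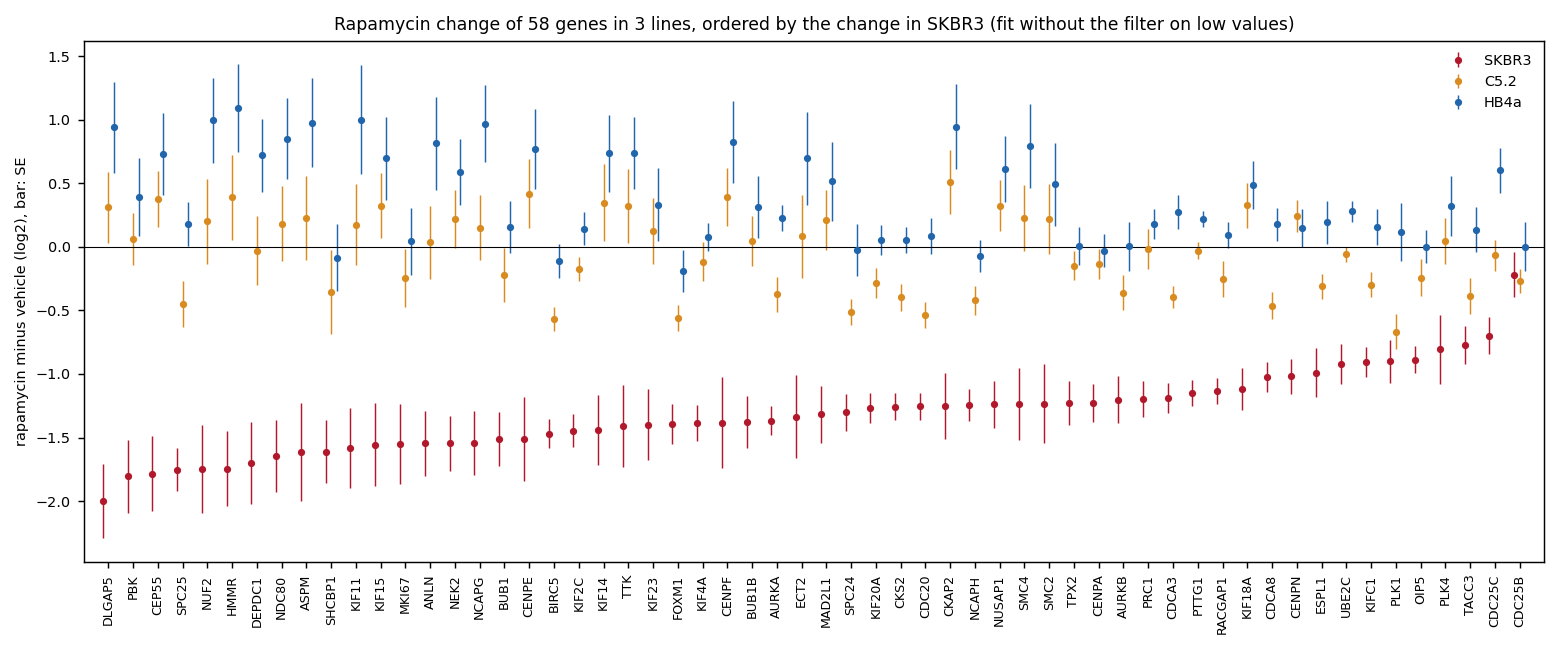
Points give the rapamycin minus vehicle change (log2 units, bars: SE, n = 5 arrays per group) of each of the 58 genes in SKBR3, C5.2 and HB4a, from the fit without the filter on low values, ordered by the change in SKBR3. All 58 SKBR3 points are under 0, and 52 of the HB4a points are above 0.

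Before any drug the lines already differed. In vehicle 20 of 50 members were higher and 1 lower in C5.2 than in HB4a, where 29.3% of all genes were higher and 19.9% lower. Of the 40 that passed the filter within both lines, 14 were higher and 1 lower. A member that passed within 1 line only entered because it was high there, and its levels are given as a description. That holds for CEP55, which read 5.73, 5.24, 5.27, 5.30 and 5.45 in C5.2 and 4.29, 3.26, 4.10, 4.08 and 4.13 in HB4a. All C5.2 arrays were above the HB4a arrays. Of those that passed within both, SMC4 was higher by 1.16 ± 0.31, MKI67 by 1.04 ± 0.26, BUB1B by 1.03 ± 0.23 and FOXM1 by 0.67 ± 0.14, while borealin CDCA8 was lower (-0.49 ± 0.12, adjusted p = 0.000705). Of the anaphase genes PTTG1 was higher, and CDC20 (adjusted p = 0.162), UBE2C (adjusted p = 0.325) and ESPL1 did not pass. Line and any batch of array processing cannot be told apart, since the labels give no batch.

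SKBR3 had 23 of 51 members higher and 20 lower than HB4a in vehicle (background 37.6% and 39.7%), and 13 of 50 higher and 21 lower than C5.2 (background 36.2% and 42.6%). In both comparisons members were called about as often as all genes tested. Of members that passed the filter within both lines compared, 14 of 38 were higher and 18 lower than in HB4a, and 10 of 43 higher and 20 lower than in C5.2. FOXM1 read 5.47, 5.94, 6.04, 5.85 and 5.84 in SKBR3, against 8.09, 8.54, 8.0, 8.26 and 8.02 in C5.2 and 7.24, 7.64, 7.27, 7.68 and 7.73 in HB4a. The 3 lines formed separate ranges with SKBR3 lowest and C5.2 highest, and SKBR3 was -2.35 ± 0.13 against C5.2 (adjusted p = 8.35e-19) and -1.68 ± 0.16 against HB4a (adjusted p = 8.86e-12). TPX2 was -1.42 ± 0.16 in SKBR3 against HB4a (adjusted p = 8.73e-10). AURKB, which passed the filter in HB4a and not in SKBR3, read 4.52, 4.09, 4.63, 4.50 and 4.57 in SKBR3 and 6.03, 6.57, 6.35, 6.84 and 6.91 in HB4a, without overlap. SMC4 read 7.68, 6.79, 7.61, 7.65 and 7.26 in SKBR3 and 5.05, 4.19, 4.46, 4.73 and 5.16 in HB4a. These ranges did not meet, and the difference was 2.68 ± 0.33 (adjusted p = 3.08e-09). ECT2, the exchange factor that positions the contractile ring, was 2.43 ± 0.37 higher in SKBR3 than in HB4a (adjusted p = 3.29e-07). CENPF, a large kinetochore protein that passed in SKBR3 and not in HB4a, read 5.09, 5.15, 6.06, 6.20 and 6.06 in SKBR3 and 3.91, 3.10, 3.13, 3.53 and 3.98 in HB4a. All SKBR3 arrays were above the HB4a arrays. All 4 anaphase genes were lower in SKBR3 than in either other line.

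Other genes of the same machinery were counted for comparison. With rapamycin in SKBR3, where 10.8% of all genes fell, 29 of 43 further kinetochore, checkpoint, anaphase-promoting complex and cytokinesis genes fell and 0 rose, with a median of -0.67 log2 units. TOP2A, topoisomerase II alpha, changed by -1.41 ± 0.29 and the spindle protein PSRC1 by -1.39 ± 0.16. Of the mitotic cyclins, CDK1 and its regulators 9 of 10 fell (median -0.94), with cyclin A2, CCNA2, at -1.59 ± 0.20 and CDK1 at -1.54 ± 0.30. Of G1/S and origin licensing genes 22 of 27 fell (median -0.62), with the replication factor MCM10 at -1.66 ± 0.25 and thymidylate synthase, TYMS, at -1.25 ± 0.11. In the MuvB, B-MYB and DREAM list 2 of 8 fell, MYBL2, which encodes B-MYB, at -1.28 ± 0.11 and the E2F partner TFDP1 at -0.41 ± 0.09. With both drugs in SKBR3 the falls in these 4 lists numbered 27, 8, 13 and 2, with 0, 0, 1 and 1 rises, where 13.6% of all genes fell and 8.35% rose.

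The p53 targets of arrest were counted as well. Doxorubicin raised 12 of 15 in HB4a (background 8.66%) and 10 of 14 in C5.2 (background 2.84%), with medians of 1.08 and 1.18 log2 units. In SKBR3 it changed 0 of 8 (background 0.837%), with 1 higher and 0 lower at an unadjusted p under 0.05 by limma and a median of -0.03. CDKN1A, the CDK inhibitor p21, rose by 1.75 ± 0.16 in HB4a and 2.14 ± 0.20 in C5.2 and did not pass the filter in SKBR3. With both drugs in C5.2, where 6.42% of all genes rose and 14.6% fell, 13 of 14 p53 targets rose and 0 fell, 9 of 49 further kinetochore and cytokinesis genes rose and 1 fell, and 1 of 29 G1/S genes rose and 13 fell, with UNG, a uracil glycosylase, at -0.83 ± 0.09 and the helicase subunit MCM5 at -0.78 ± 0.16. With rapamycin in C5.2, where 14.6% of all genes fell and 2.83% rose, the falls were 11 of 49 further mitotic genes, 5 of 10 cyclins and CDK1 genes, and 11 of 29 G1/S genes, with 0 rises in each.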

How the data were processed

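RNA was measured on 60 arrays, 5 per group in 12 groups, mapped from sample titles and the series' design text. The labels name the vehicle group DRC, a name the treatment text also uses for the drug pair; it is DMSO by the source names. Both doses are taken to be in nM. The authors deposited log2 values made with RMA, per the submitters' processing notes, without a version number. Values ran from -0.60 to 13.08, from which base 2 was inferred, and the floor is lower than RMA usually gives. Labels give no batches, scan dates or detection calls. Of 54675 probe sets, 41091 carried 1 symbol, 1801 with several and 6 controls were left out, and each of 19775 genes took its brightest.
Fits used limma 3.58.1 in R 4.3.3 (lmFit, eBayes with trend, Benjamini-Hochberg adjusted), within a line over 20 arrays and between lines over 40, and were tested on simulated data. Python 3.11.15 with matplotlib 3.10.9, numpy 2.4.6 and pandas 2.3.3 computed the sequence counts and drew the plots, and files were read with version 1.17.8 of data.table. The members, lists and tests were chosen with earlier results of these data known. Any of the 58 members could be named; array values were given for 19 preset genes and up to 5 called members per direction and comparison, and for a few more picked after their values were seen. In other lists the 2 called members of largest change per direction were named.
Experiment numbers were taken as pairing arrays where every same-number pair of residuals correlated above 0.1. This held in SKBR3 (lowest 0.238), in HB4a without the both-drug group (with it, lowest -0.569, from its arrays 2 and 3, which correlated with the other number: array 3 at 0.68 to 0.88 with arrays 2, and array 2 at 0.55 to 0.63 with arrays 3) and in C5.2 except both drugs against vehicle (-0.100). In the other comparisons within C5.2 the lowest was 0.105, for rapamycin against vehicle. Pairing also held for C5.2 against HB4a in vehicle, for the doxorubicin response in both pairs of lines and for the rapamycin response of C5.2 against HB4a.
The alternatives run were the low-value filter dropped or set at log2 7, probe sets of a gene averaged, quantile normalization over all 60 arrays, array weights, the block and each array left out. Leaving out arrays that stood apart, or SKBR3 vehicle array 3, was chosen after seeing the data.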

Additional observations from a re-analysis of the deposited data

Results flagged for a closer look

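Of 252 groups of 5 arrays examined, 22 held 1 array far from the other 4, and chance gives about 1 in 20 groups. Experiment 1 stood low for CDC25B in several groups: 7.04 with doxorubicin in HB4a (next array 7.60), 6.68 with rapamycin (7.38) and 7.01 with both drugs (7.76), and 8.06 with doxorubicin (8.71) and 7.74 with vehicle (8.51) in SKBR3. It stood high for the checkpoint gene BUB1B with rapamycin in HB4a, at 6.84 (next 5.74), low for UBE2C with doxorubicin in SKBR3, at 9.40 (9.85), and low for MKI67 with both drugs in SKBR3, at 2.88 (4.42). In C5.2, experiment 2 was far from the rest for UBE2C with doxorubicin, 10.87 (11.07), and with rapamycin, 10.49 (10.39), and for AURKA with both drugs, 8.87 (9.50). PRC1 in C5.2 vehicle array 4 read 8.57 (8.30).

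In SKBR3, AURKB read 4.08 on both-drug array 6 (3.60), 2.41 on rapamycin array 2 (3.37) and 4.09 on vehicle array 2 (4.50), and BIRC5 read 6.30 on rapamycin array 2 (6.71). Array 4 given both drugs was high for SMC4, at 7.28 (6.12), and for the median of the 58 genes, at 5.15 (4.83). The mean of 6 genes that read low in SKBR3 and high in both other lines stood apart on SKBR3 vehicle array 3, at 4.43 (1.70), on C5.2 both-drug array 2, at 8.90 (9.22), on C5.2 rapamycin array 2, at 9.18 (9.42), and on HB4a vehicle array 2, at 8.78 (9.10). Each of these arrays was also left out in turn. Without C5.2 both-drug array 2, 20 members were called for both drugs against vehicle in C5.2, where all arrays gave 10.

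The lines differed in their responses by limma's test of the difference itself. For rapamycin 50 of 51 tested members responded lower in SKBR3 than in HB4a, and the 5 largest differences were those of DLGAP5 (-2.94 ± 0.49 log2 units, adjusted p = 9.16e-05), HMMR (-2.84 ± 0.48, 0.000123), the kinetochore gene NUF2 (-2.74 ± 0.52, 0.000466), ASPM (-2.59 ± 0.56, 0.00245) and CEP55 (-2.52 ± 0.47, 0.00039). For both drugs 49 of 51 did, led by ASPM (-2.76 ± 0.56, 0.000748), DEPDC1, a gene of mitotic cells (-2.66 ± 0.46, 9.9e-05), NUF2 (-2.51 ± 0.52, 0.000836), HMMR (-2.43 ± 0.48, 0.000582) and DLGAP5 (-2.41 ± 0.49, 0.000763). Of these genes DLGAP5 and HMMR passed the filter within both lines. ASPM and CEP55 passed within SKBR3 only, and NUF2 and DEPDC1 within neither line alone, so their differences are given as a description.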

How the results depend on the processing

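Numbers are members called. In SKBR3, rapamycin against vehicle called 45, and 42 to 45 with 1 array left out. Both drugs called 44 (40 to 44) and both against doxorubicin 45 (37 to 45). All 45 genes called with rapamycin stayed called under every setting that tested them, as did 43 of 44 with both drugs, 8 of 10 with rapamycin in C5.2, 6 of 10 with both drugs in C5.2, 0 of 1 with both against doxorubicin in C5.2, 1 of 2 with both against each single drug in HB4a, 13 of 21 for C5.2 against HB4a in vehicle, and 45 of 50 for the rapamycin response of SKBR3 minus HB4a. Of 389 gene results called, 0 reversed, and 288 of their comparisons with other settings lost the call.
Array weights gave 7 (doxorubicin), 3 (rapamycin), 11 (both), 12 (both against doxorubicin) and 4 (both against rapamycin) in HB4a, 17, 27, 39 and 23 for the first 4 of these in C5.2, and 5 for doxorubicin and 5 for both against rapamycin in SKBR3. For response differences they gave 1 (doxorubicin, SKBR3 minus HB4a) and, for C5.2 minus HB4a, 5, 14 and 6 for doxorubicin, rapamycin and both.
Leaving out arrays that stood apart gave 5 (doxorubicin) and 1 (rapamycin) in HB4a, 16 (doxorubicin), 26 (both) and 11 (both against doxorubicin) in C5.2, and 2 (doxorubicin) and 1 (both) for C5.2 minus HB4a responses.
The filter at log2 7 tested fewer genes and gave 2 for rapamycin in HB4a, 0 for both against doxorubicin in C5.2, 16 of 17 (rapamycin), 15 of 17 (both) and 16 of 17 (both against doxorubicin) in SKBR3, 11 of 22 for C5.2 and 22 of 24 for SKBR3 against HB4a in vehicle, 21 of 25 for SKBR3 against C5.2, and 23 of 24 for the rapamycin and 23 of 24 for the both-drug responses of SKBR3 minus HB4a. No filter gave 1 for both against doxorubicin and 1 for both against rapamycin in HB4a, and 6 (both) and 0 (both against doxorubicin) in C5.2. The mean of all probe sets gave 1 (rapamycin) and 3 (both) in HB4a and 5 for doxorubicin in C5.2. Quantile normalization gave 17 (both) and 2 (both against doxorubicin) in C5.2 and 1 for both against rapamycin in SKBR3.
With the replicate block, counts were 7, 11, 18, 16 and 9 in HB4a (doxorubicin, rapamycin, both, both against doxorubicin, both against rapamycin), 19, 20, 23 and 17 for the first 4 in C5.2, 4 for doxorubicin and 10 for both against rapamycin in SKBR3, and 4 (doxorubicin) and 14 (rapamycin) for C5.2 minus HB4a responses. The numbers paired the arrays except for both drugs in HB4a, both against vehicle in C5.2, SKBR3 against either line in vehicle, and the rapamycin and both-drug responses of SKBR3 and the both-drug response of C5.2 against HB4a. In HB4a the both-drug arrays 2 and 3 correlated with the opposite numbers, so these labels may be exchanged. They were kept as given. The block was fitted over all arrays of a line with a shared spread, so every count with the block that involves HB4a rests on them. The C5.2 counts with the block likewise rest on its both-drug arrays, which did not pair with vehicle in experiments 1 and 4 (r = -0.100 and -0.063). The block moved no other count by over 1.5 times.
Leaving out 1 array gave 0 to 2 (rapamycin), 1 to 5 (both against doxorubicin) and 1 to 3 (both against rapamycin) in HB4a, 3 to 6 (doxorubicin), 6 to 20 (both) and 0 to 11 (both against doxorubicin) in C5.2, 0 to 3 for both against rapamycin in SKBR3, and 0 to 1 for the C5.2 minus HB4a rapamycin response. Apart from the smaller number tested, the cause of these moves was not tested. Members that did not pass the filter numbered 12 in SKBR3, 11 in C5.2 and 17 in HB4a. Some sit near background, where signal limits what can be called, and others lie well above it. In SKBR3 vehicle these members averaged from 1.73 (KIF18A) to 4.86 (DEPDC1), where array medians, taken as background, were 1.41 to 1.71 over all arrays. Without the filter 56 of 58 members fell with rapamycin in SKBR3.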
